A study of Mus musculus with 12 samples.

Results

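The AP-1 genes were followed in satellite cells, the stem cells of skeletal muscle. These came from wild-type (WT) mice and from knockout (KO) mice, in which tamoxifen induced deletion of the chemokine receptor gene Cxcr4 in Pax7-expressing cells. The AP-1 set was fixed by name as Fos, Fosb, Fosl1, Fosl2, Jun, Junb, Jund, Atf3, Batf3 and Jdp2, which made 10 of the 55401 genes in the deposited count table. Of these, 9 had at least 1 count in some library and entered the test across 25771 genes, and Jund was listed at 0 in all 12 libraries. KO mice carried CXCR4 FL/FL, Pax7-creERT2 and Pax7-ZsGreen, and WT mice carried the same floxed allele and reporter without the Cre. Cells were sorted from hind limbs by the Pax7-ZsGreen reporter, so the gate selected cells by Pax7 reporter activity, and recombination depended on a Pax7-driven Cre. Both genotypes received tamoxifen at 80 mg/kg for 5 days and then food containing tamoxifen until the end of the experiment. Muscle was digested at 37 °C for 75 min and then for 30 min before the sort in all groups. There were 4 WT and 4 KO quiescent libraries, made from freshly sorted cells, and 2 WT and 2 KO activated libraries, made from sorted cells kept overnight in culture. The culture used growth medium with serum and basic fibroblast growth factor, which only the activated cells received. Mice were adult, and the methods count sample sizes in independent mice, but the labels do not tie each library to an animal, so p-values measure the spread between these libraries.

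AP-1 is a dimer of basic leucine zipper proteins. Fos proteins (Fos, Fosb and the Fos-like proteins encoded by Fosl1 and Fosl2) cannot pair with each other and bind DNA together with a Jun protein (Jun, Junb, Jund), while Atf3, Jdp2 and Batf3 are related zipper proteins that join or compete with these dimers. Fos, Fosb, Jun, Junb and Atf3 are immediate early genes, whose transcription rises within minutes of growth factor, stress or wound signals through MAP kinases and needs no new protein. In muscle, satellite cells taken out of their niche by enzymatic digestion are known to carry early gene transcripts that intact tissue has at lower levels. The study asked how loss of Cxcr4 alters satellite cells before and during early activation.

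In GRCm38 (GENCODE M21 gene models) the members lie as follows: Fos at chr12:85473890-85477273, Fosb at chr7:19302696-19310051, Fosl1 at chr19:5447547-5455946, Fosl2 at chr5:32135801-32157842, Jun at chr4:95049034-95052222, Junb at chr8:84974484-84978718, Jund at chr8:70698949-70700616, Atf3 at chr1:191170296-191218039, Batf3 at chr1:191097847-191108945, Jdp2 at chr12:85599027-85639878. The promoters of the early genes whose levels moved most, together with Junb and Jun as their partners, are shown because motifs of the CRE type, which CREB, ATF and Jun proteins bind, lie close to their starts. Since they were chosen for holding such motifs, the display does not link motifs to the size of a change. Fosl2, which changed more than Jun or Junb, had no such match and is not shown. RefSeq windows on GRCm38.p6 were used for 8 of 10 members, all but Fosl1 and Jund, with 10 windows in all and 3 of them at Jdp2. Each line gives the 150 bases before the annotated start, 5′ to 3′ along the gene, and capitals mark TGACG or TGACNTCA on either strand, so that CGTCA is TGACG read on the other strand. The stretches are Fos (chr12:85473740-85473889, plus strand), Fosb (chr7:19310046-19310195, minus strand), Jun (chr4:95052223-95052372, minus strand), Junb (chr8:84978749-84978898, minus strand) and Atf3 (chr1:191183334-191183483, minus strand).
Fos: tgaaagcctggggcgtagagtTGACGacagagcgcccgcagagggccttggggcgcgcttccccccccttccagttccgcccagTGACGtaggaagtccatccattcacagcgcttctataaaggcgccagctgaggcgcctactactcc
Fosb: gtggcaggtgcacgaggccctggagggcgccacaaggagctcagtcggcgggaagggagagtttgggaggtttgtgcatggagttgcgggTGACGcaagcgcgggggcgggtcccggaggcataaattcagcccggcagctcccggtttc
Jun: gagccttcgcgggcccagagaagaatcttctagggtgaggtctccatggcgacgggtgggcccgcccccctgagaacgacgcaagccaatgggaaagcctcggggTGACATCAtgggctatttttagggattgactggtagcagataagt
Junb: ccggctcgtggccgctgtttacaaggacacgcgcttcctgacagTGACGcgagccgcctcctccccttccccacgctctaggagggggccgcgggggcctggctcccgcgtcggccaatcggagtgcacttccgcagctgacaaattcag
Atf3: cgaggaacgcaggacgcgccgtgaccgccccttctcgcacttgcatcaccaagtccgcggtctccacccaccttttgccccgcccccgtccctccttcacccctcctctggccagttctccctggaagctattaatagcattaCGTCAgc

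Counting the base before the start as -1, TGACG lay at -66 to -62 and at -129 to -125 in Fos, at -60 to -56 in Fosb, at -106 to -102 in Junb and at -7 to -3 in Atf3. Jun held TGACNTCA at -45 to -38. Jdp2 held TGACG at -114 to -110 in 1 of its 3 windows, and no TGACG or TGACNTCA was present in the windows of Fosl2 or Batf3. Over all 32851 promoter windows of the same length, from 250 bases before to 50 after the start, 20.8% held TGACG and 8.83% held TGACNTCA, and the motifs overlap where TGACG is followed by TCA. The AP-1 motif TGANTCA, present in 7.81% of all windows, and the CArG box, the SRF site, present in 1.63%, had no match in the windows of these members. The MEF2 site, present in 3.19% of all windows, matched at -33 to -24 in Jun and at -22 to -13 in Atf3. These are matches of letters only. Sites more than 250 bases before the start were not searched, so no match here does not mean that a gene lacks such a site.

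Library totals were 12775593 to 23717013 counts in quiescent and 3172164 to 5427280 in activated cells, and 19717 to 23436 against 10344 to 13411 genes had 10 counts or more. The transcript CT010467.1 took 11.5% to 40.3% of the counts in activated libraries and at most 0.807% in quiescent ones. All 8 quiescent libraries held Y-linked transcripts (Ddx3y at 289 to 570 CPM, read counts scaled to library size with TMM factors) with Xist at 7.17 CPM or less, and all 4 activated libraries held Xist at 451 to 817 CPM with Ddx3y at 2.28 CPM or less, so sex, depth and state cannot be told apart here. All 6 fibre genes of a fixed list were called higher in activated cells of both genotypes (summed level 6026 to 14909 CPM against 236 to 839 CPM). Of 8 satellite cell markers, 7 were called lower in WT and 8 in KO activated cells, with Pax7 at 181 to 482 CPM in quiescent and 71.2 to 129 CPM in activated libraries. Markers of other cells were present in quiescent libraries, where 6 endothelial markers summed to 222 to 986 CPM, 5 smooth muscle and pericyte markers to 448 to 1705 CPM, 6 fibroadipogenic markers to 286 to 2966 CPM, 6 blood markers to 76.9 to 354 CPM and 3 Schwann cell markers to 162 to 376 CPM. In activated libraries the same sums were 89.8 to 647, 159 to 342, 250 to 730, 32.8 to 65.9 and 29.3 to 133 CPM. No marker on these lists was at 0 throughout a group other than Y-linked genes. Their part in the AP-1 differences was not tested. In these bulk samples, fewer cells of a type and less RNA per cell cannot be told apart.

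Cxcr4, the targeted gene, averaged 80.5 ± 25.3 CPM (SD, n = 4) in WT and 17.1 ± 3.54 (SD, n = 4) in KO quiescent cells, a log2 fold change of -2.24 (SE 0.31, adjusted p = 0.00477 by edgeR's quasi-likelihood test with Benjamini-Hochberg adjustment). After culture it was at 33.3 and 14.4 CPM in WT and 5.39 and 13.7 CPM in KO, and that difference was not called (adjusted p = 0.381 by edgeR).

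AP-1 transcripts were abundant in the quiescent libraries, which were made from cells sorted after enzymatic digestion of the muscle. The paper places the earliest step of activation, the appearance of MYOD1 protein, in this digestion. In the same libraries 19 other early and heat shock genes known to respond to digestion summed to 35680 to 45214 CPM in WT. In KO they summed to 27141 to 38601 CPM. How much of the AP-1 level was already present before digestion was not tested. The family took 2.49% ± 0.522 of all counts in WT and 2.07% ± 0.364 in KO quiescent cells (SD, n = 4 each), with a range of 1.53% to 3.18% over 8 libraries. In activated libraries the share was 0.295% and 0.0839% in WT and 0.129% and 0.0928% in KO. Leaving CT010467.1 out of the totals, the activated values were 0.337%, 0.141%, 0.146% and 0.130%, still below every quiescent library.

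Levels of different genes were compared per length, as CPM divided by the exon length in kilobases (GENCODE M21), and ranked among all genes of a library. Junb, which encodes the Jun protein that often restrains Jun, ranked 7 to 24, Fos 10 to 41 and Fosb 11 to 36 in quiescent libraries. Jun ranked 23 to 76 and Atf3, a stress-induced repressor of the ATF group, 76 to 150. Fosl2 ranked 173 to 276, Fosl1 468 to 907 and Jdp2 533 to 932. In activated libraries Junb still ranked 48 to 146 and Jun 109 to 292, while Fos ranked 1168 to 5840 and Fosb 1500 to 5716. The deposited FPKM values, given as 1 value per group, were 0.965 to 1.28 times these length-scaled levels over 8 members and 4 groups, with Junb highest at 1.24 to 1.28.

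Activated against quiescent cells. AP-1 transcripts were lower after overnight culture in both genotypes. In WT, 7 of 9 tested members were called lower and 0 higher, against 16.5% of all tested genes called lower, 9.65% called higher and 26.2% called in all. In KO, 8 of 9 were called lower and 0 higher, against 18.5%, 11.1% and 29.6%. A gene was called at an adjusted p below 0.05, a log2 fold change beyond 1 in size and a mean normalised count above 10. The median log2 fold change of the 8 members other than Batf3 was -2.76 in WT and -3.52 in KO, beside -0.92 and -0.96 over all tested genes. Among the 2520 well-counted genes, with an average log2 CPM over 6, 29.8% were called lower in WT and 31.7% in KO. The medians of these genes were -0.42 and -0.39. Without WT activated replicate 1 the WT median was -3.34, and without WT activated replicate 2 it was -2.32. The WT and KO comparisons share no library, but they come from 1 fit. Both also hold the same differences of sex and depth between the states.

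**Figure D1:**
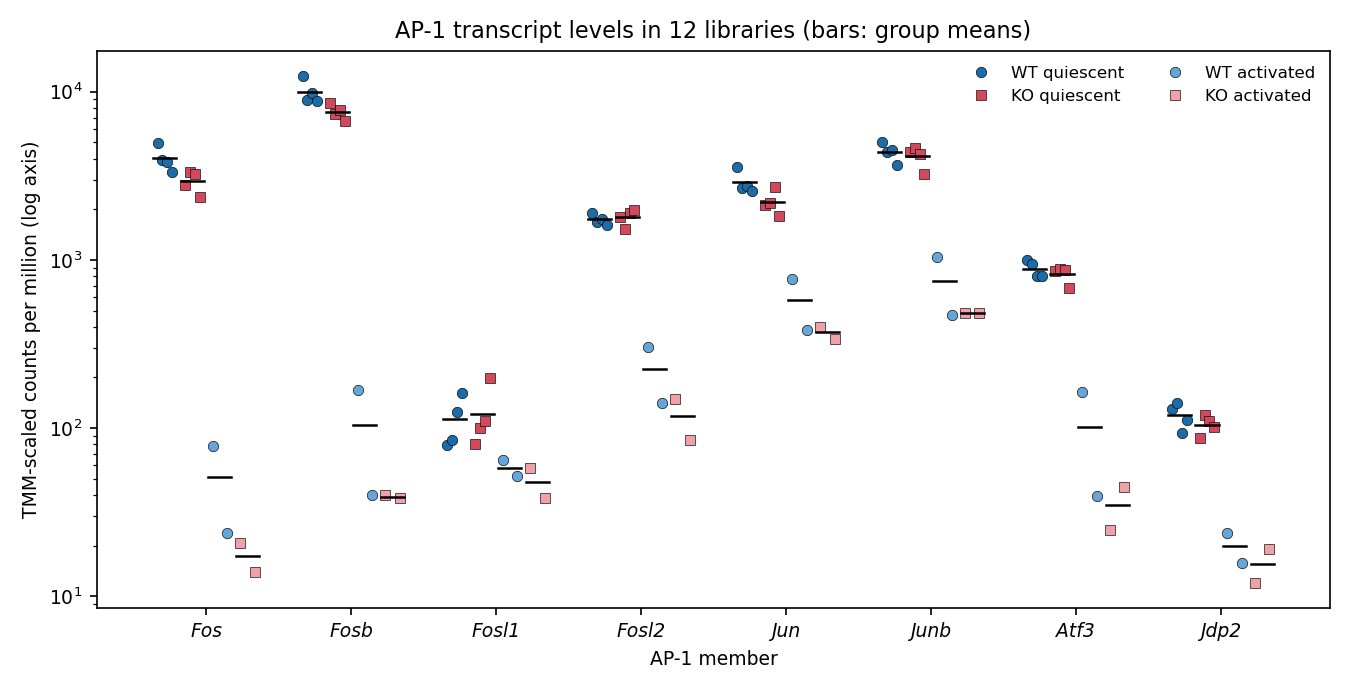
Level of 8 AP-1 transcripts in each of 12 libraries, in TMM-scaled CPM on a log axis, with points for libraries and bars for group means (4 libraries per quiescent group, 2 per activated group). Fos and Fosb lay at 2359 to 12392 CPM in quiescent and 13.9 to 169 CPM in activated libraries, whereas Fosl1 stayed between 38.6 and 198 CPM in all libraries.

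Fos, the founding partner of Jun, was at 4983, 3908, 3822 and 3342 CPM in WT quiescent replicates 1 to 4 and at 78.4 and 23.6 CPM in the WT activated replicates. It was at 2804, 3332, 3262 and 2359 CPM in KO quiescent and 20.8 and 13.9 CPM in KO activated libraries. The states did not overlap, and WT activated replicate 1 was the highest of the cultured libraries. The log2 fold change was -6.27 (SE 0.49, adjusted p = 4.33e-08 by edgeR) in WT, which is 77.2-fold lower, and -7.41 (SE 0.53, adjusted p = 1.52e-08 by edgeR) in KO, 169.5-fold lower. The WT value was -7.33 without WT activated replicate 1 and -5.62 without WT activated replicate 2, and Fos was called lower in both cases.

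Fosb, a Fos protein with a short alternative form that lacks part of the activating region, was at 12392, 8916, 9853 and 8845 CPM in WT quiescent libraries and at 169 and 39.8 CPM in WT activated ones. In KO it was at 8524, 7422, 7739 and 6705 CPM before and 39.8 and 38.3 CPM after culture. The 4 activated values lay far under every quiescent value, and 3 of them were within 2 CPM of each other. The log2 fold change was -6.57 (SE 0.54, adjusted p = 5.78e-08 by edgeR) in WT and -7.60 (SE 0.57, adjusted p = 2.08e-08 by edgeR) in KO. The WT value rested on which of the 2 activated libraries was kept, at -7.89 without replicate 1 and -5.83 without replicate 2, so the order of the genotypes was not fixed.

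Fosl2, which encodes the Fos-related protein Fra-2, was at 1914, 1681, 1761 and 1622 CPM in WT quiescent and 305 and 142 CPM in WT activated libraries, and at 1796, 1528, 1889 and 1983 CPM in KO quiescent and 150 and 85.1 CPM in KO activated libraries. Its log2 fold change was -2.96 (SE 0.35) in WT and -3.94 (SE 0.37) in KO, called in both. The quiescent libraries varied little, with a coefficient of variation of 7.24% in WT and 10.9% in KO.

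Fosl1, which encodes Fra-1 and is itself a known target of AP-1, stood apart from the other Fos genes. It was at 79.0, 85.4, 125 and 162 CPM in WT quiescent and 64.2 and 52.1 CPM in WT activated libraries. In KO it was at 80.4, 99.5, 110 and 198 CPM before and 57.5 and 38.6 CPM after culture. The states did not overlap, but the gap was small beside the spread among quiescent libraries (coefficient of variation 34.2% in WT and 42.9% in KO). The log2 fold change was -0.95 (SE 0.36, adjusted p = 0.0541 by edgeR) in WT and was not called. This was near the median of all genes, with 49.5% of tested genes lower, and below that of the well-counted genes (-0.42). In KO the log2 fold change was -1.35 (SE 0.37, adjusted p = 0.00879 by edgeR) and called. Neither call was stable: in WT the gene was called without quiescent replicate 1 (-1.08, adjusted p = 0.0402 by edgeR), and in KO the call was lost without activated replicate 2 (-1.07, adjusted p = 0.134 by edgeR). The 2 genotypes were not shown to differ in this change (difference -0.39, SE 0.50, adjusted p = 1.00 by edgeR). Fosl1 overlaps Ccdc85b on the opposite strand over 2767 bases, and Ccdc85b had 500 to 7422 counts per library, so reads of the pair may be mixed where counting did not use strand.

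Jun, the main DNA-binding partner of Fos, was at 3562, 2694, 2748 and 2568 CPM in WT quiescent and 774 and 381 CPM in WT activated libraries. In KO it was at 2135, 2185, 2696 and 1834 CPM before and 400.4 and 340.4 CPM after culture. The log2 fold change was -2.32 (SE 0.33) in WT and -2.58 (SE 0.34) in KO, so that Jun fell about 5.01-fold and 5.97-fold, far less than Fos. Junb was at 5030, 4360, 4477 and 3643 CPM in WT quiescent and 1035 and 472 CPM in WT activated libraries, and at 4392, 4612, 4267 and 3264 CPM in KO quiescent and 483 and 482 CPM in KO activated libraries. Its log2 fold change was -2.54 (SE 0.34) in WT and -3.10 (SE 0.35) in KO, and the WT value was -3.14 without WT activated replicate 1. Both Jun genes were called lower in both genotypes. Jun shares 689 bases with the antisense gene Junos, which had 3 to 83 counts per library, and Junb shares 351 bases with Prdx2, so their share of mixed reads is not known. Jund, the Jun gene that most cells express steadily, was listed at 0 in every library and in the FPKM table, as were 1049 protein-coding genes, and so was the antisense gene Gm11175 that covers 919 of its 1668 bases. No level of Jund is drawn from this.

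Atf3 was at 994, 943, 807 and 807 CPM in WT quiescent and 163 and 39.4 CPM in WT activated libraries, and at 864, 884, 877 and 683 CPM in KO quiescent and 24.9 and 44.7 CPM in KO activated libraries. Its log2 fold change was -3.11 (SE 0.44, adjusted p = 2.18e-05 by edgeR) in WT and -4.57 (SE 0.48, adjusted p = 7.53e-07 by edgeR) in KO. WT activated replicate 1 was again the highest cultured library, and the WT value was -4.42 without it and -2.38 without replicate 2. Jdp2, which encodes a zipper protein that represses AP-1 by pairing with Jun, was at 93.9 to 140 CPM in WT quiescent and 87.9 to 119 CPM in KO quiescent libraries, against 15.8 to 23.9 and 12.1 to 19.2 CPM after culture. Its log2 fold change was -2.56 (SE 0.31) in WT and -2.74 (SE 0.31) in KO, called in both.

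Batf3, best known from dendritic cells, was near the limit of counting. It had 8 to 35 counts in WT quiescent and 4 to 20 in KO quiescent libraries, 0 in both WT activated libraries and 1 and 2 in the KO activated ones. Pooled, WT quiescent cells were at 1.05 CPM, with single libraries at 0.568 to 1.54 CPM. A floor of 3 counts over the WT activated group corresponds to 0.357 CPM, 2.95-fold below that pooled level. In KO the activated level was 0.541 times the quiescent one (exact 95% interval 0.108 to 1.67). The KO interval covers counting error only, and the WT floor takes the pooled quiescent level as exact. No call was made for Batf3 in any comparison. For activated against quiescent in WT its adjusted p was 0.0391 by edgeR, and the mean count threshold withheld the call. Batf3 passed the count filter only through the quiescent libraries, so a fall after culture was favoured in advance.

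**Figure D2:**
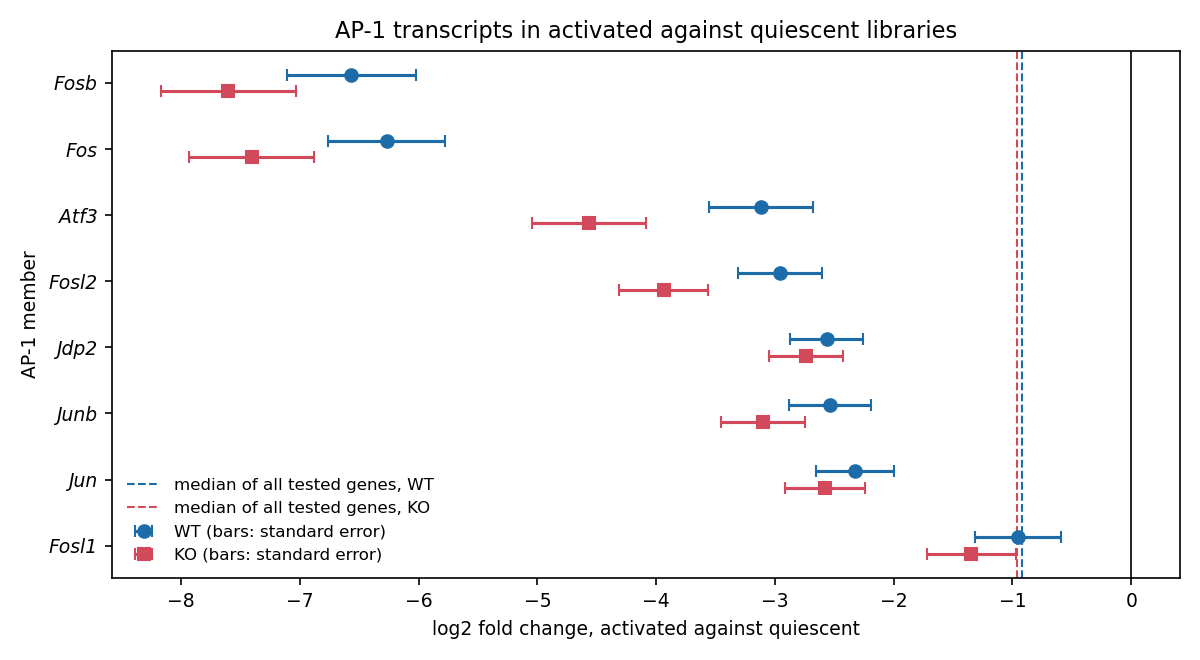
Log2 fold change of activated against quiescent cells for 8 AP-1 members in WT (circles) and KO (squares), with standard errors from the edgeR fit, and dashed lines at the median of all tested genes (-0.92 in WT, -0.96 in KO). Fosb and Fos lie lowest at -6.27 to -7.60, and Fosl1 lies at or near the median of all genes.

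The order of groups was WT quiescent, KO quiescent, WT activated and KO activated from high to low for Fos, Fosb, Jun, Junb, Atf3 and Jdp2. For Fosl1 and Fosl2 the KO quiescent mean was the highest. Within each state the genotypes, which are neighbours in this order, were not shown to differ by the test, and the 2 states did not overlap within either genotype for any of these 8 genes.

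The make-up of the AP-1 pool differed between the states. Per length, Fos and Fosb held 24.9% ± 0.874 and 23.4% ± 1.12 of the family signal in WT quiescent cells and 22.1% ± 1.5 and 21.7% ± 1.71 in KO quiescent cells (SD, n = 4). In WT activated cells they held 3.08% ± 0.863 and 2.28% ± 1.01, and in KO activated cells 1.84% ± 0.435 and 1.57% ± 0.0295 (SD, n = 2). Junb went from 27.9% ± 1.30 in WT and 31.8% ± 1.73 in KO quiescent cells to 50.1% ± 0.405 and 52.6% ± 2.34. Jun went from 13.3% ± 0.435 and 12.3% ± 1.18 to 28.1% ± 1.75 and 29.1% ± 2.01. The share of Fosl1 was 0.476% to 2.06% in quiescent and 3.50% to 6.87% in activated libraries, and that of Atf3 was 5.61% to 6.91% against 2.81% to 8.40%, which overlapped. From the deposited FPKM, Junb held 33.0% and 37.4% of the signal in the quiescent and 56.0% and 58.5% in the activated groups. Shares sum to the whole, so a rise in the share of one gene goes with a fall in another, and the mean level of each gene was lower after culture. No Jund signal enters these shares.

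**Figure D3:**
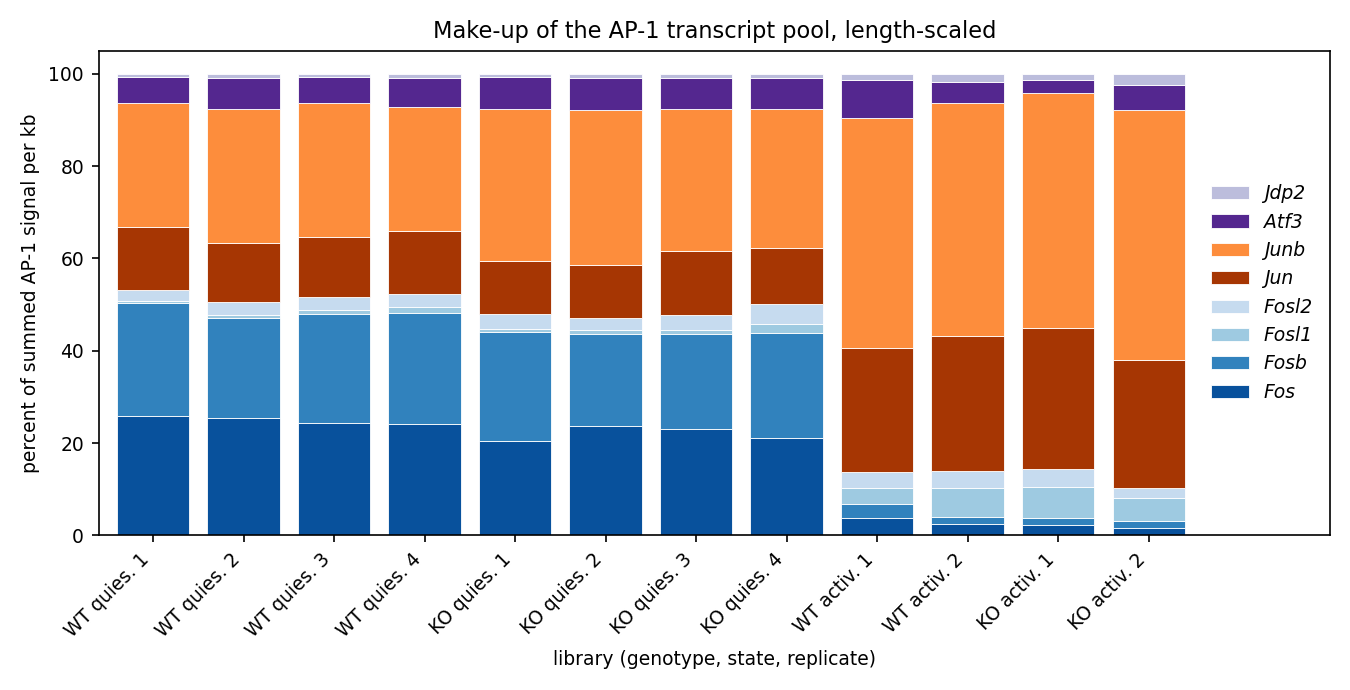
Share of each AP-1 gene in the summed length-scaled signal of the family, in percent, for each of 12 libraries (stacked bars). Fos and Fosb together fill a large part of every quiescent bar and little of any activated bar, where Junb reaches 49.8% to 54.3%.

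The counts of Fosl1 and Fos were also set against each other within libraries, as log2((Fosl1 + 0.5)/(Fos + 0.5)), a value that no scaling between libraries changes. Fos counts were 11.9 to 63.0 times those of Fosl1 in the 8 quiescent libraries. In the activated libraries the values were 1.22 times in WT replicate 1, 0.456 times in WT replicate 2 and 0.363 times in both KO replicates. The mean log2 ratio was -4.93 in quiescent (n = 8) and 0.94 in activated libraries (n = 4), a difference of 5.87 (exact permutation test, two-sided, p = 0.00404, the smallest value that this design can give). The levels of Fos and Fosl1 given above already settled this full separation, so the p adds no support of its own. With Junb in place of Fos the difference was 1.77. Between genotypes the difference was 0.53 in quiescent cells (exact permutation p = 0.371, n = 4 against 4) and 1.04 in activated cells (exact permutation p = 0.333, n = 2 against 2, the smallest value possible).

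Over the 12 libraries, the gene with the profile nearest to that of Fosb, as the root mean square distance of centred log2 CPM, was Fos at 0.235 log2 units, followed by Mfrp at 0.436 and Hs6st3 at 0.504. For Fosl1 the nearest were Sdcbp at 0.164, Marchf7 at 0.170 and Lpin2 at 0.175, and Fos and Fosb were among the most distant of all tested genes, with ranks 25711 and 25729. Batf3, whose fitted fold change was the lowest in WT, where its activated counts were 0, had Gm35554, Pcdhb21 and Cep290 as its nearest genes at 0.428 to 0.447. The 12 points fall into the 2 states, so these distances weigh the gap between the states.

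Genes around AP-1 in the pathway. The counts below are read against all tested genes, of which 16.5% were called lower and 9.65% higher in WT, and 18.5% lower and 11.1% higher in KO. Of 17 other AP-1 related zipper genes, 7 were called lower and 0 higher in WT, and 7 lower and 1 higher in KO. Creb5, a CREB-family partner of Jun, was called lower in both (log2 fold change -3.52 in WT and -3.85 in KO). The small Maf genes Maff (-2.34 and -2.62) and Mafk (-2.22 and -3.09), which lack an activating region, were also called in both, as was the Maf-pairing repressor gene Bach2 (-1.42 and -3.32). Nfe2l3, at 0 in both WT activated libraries, was among those called in WT. Of 27 genes for MAP kinases, their substrates and SRF cofactors, 5 were called lower and 2 higher in WT and 3 lower and 0 higher in KO, which is 18.5% lower and 7.41% higher in WT and 11.1% lower in KO, near or under the shares of all genes. Rps6ka3, which encodes the kinase Rsk2 (-2.68 and -2.48), and Elk1 (-1.44 and -1.57) and Srf (-1.36 and -1.38), which encode factors that drive Fos transcription, were lower in both genotypes. The 2 genes called higher in WT were the MAP kinase gene Mapk13 (2.59 and 1.49) and the SRF cofactor gene Elk3 (1.13 and 0.91), and neither was called in KO. The median of this list was 0.01 in WT and -0.17 in KO, above the median of all genes.

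Of 12 genes of negative feedback, 6 were called lower in each genotype, with 2 higher in WT and 1 in KO. Zfp36, whose protein destabilises AU-rich transcripts such as that of Fos, was at -4.93 in WT and -6.15 in KO, and Dusp1, which encodes a MAP kinase phosphatase, at -2.66 and -3.91. Dusp7 went the other way at 1.80 and 1.21. Of 5 genes for turnover of Jun and Fos proteins, 2 were called higher and 0 lower in each genotype: Det1, part of the Cop1 ubiquitin ligase that acts on Jun (2.26 and 2.45), and Fbxw7, another ligase subunit (1.16 and 1.05). Of 19 known AP-1 targets, 4 were higher and 2 lower in WT, and 3 higher and 8 lower in KO. The share called lower was 10.5% in WT and 42.1% in KO, and the difference between these counts was not tested. WT activated replicate 1 was far above replicate 2 for several targets, at 17.8 against 2.19 CPM for Il6, 41.2 against 8.32 CPM for Timp1 and 32.3 against 3.94 CPM for Ccl2. Spp1, which encodes osteopontin (3.44 and 3.12), was higher in both, and the cytokine gene Il6 (-3.20 and -6.17) and the protease gene Plau (-2.77 and -2.97) were lower in both. Mmp3, a matrix protease gene, was called higher in WT (3.55), with 25.3 CPM in 1 activated library and 0.876 CPM in the other. Of 19 other early and heat shock genes that tissue digestion is known to induce, 16 were called lower and 0 higher in each genotype, among them Nr4a1 (-4.69 and -5.17), Egr1 (-4.44 and -5.13) and Socs3 (-4.51 and -5.00). The median of that list was -1.96 in WT and -2.53 in KO.

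**Figure D4:**
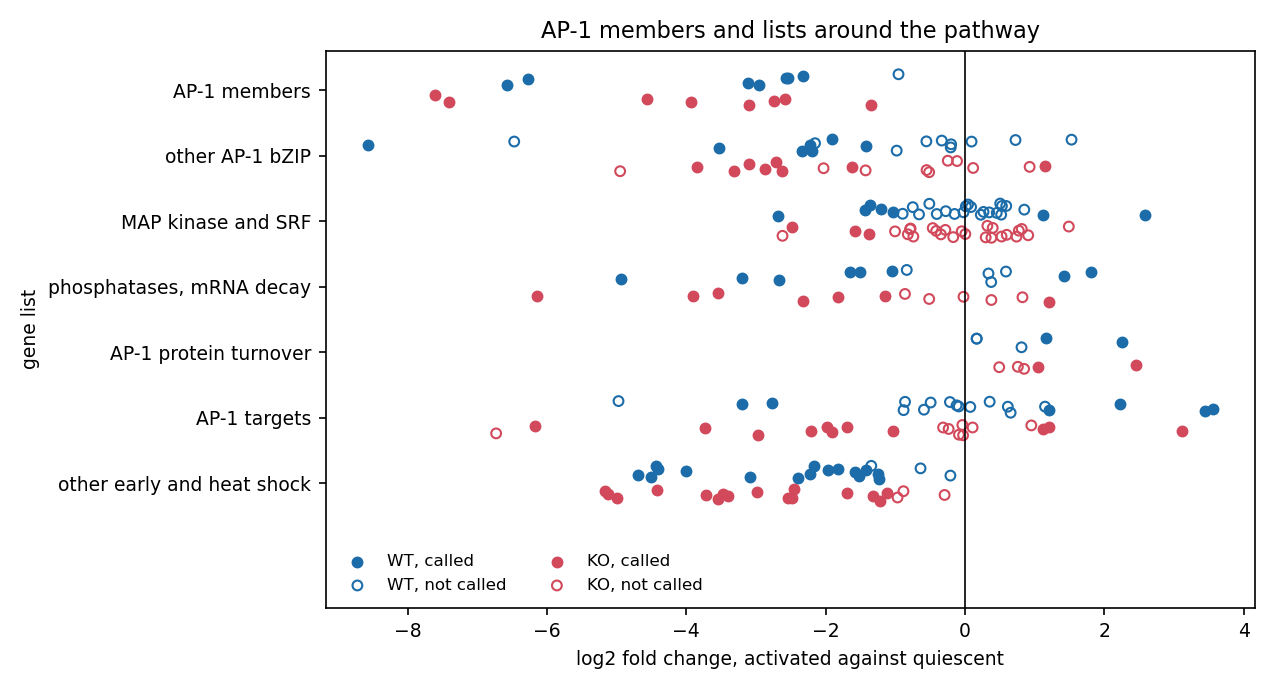
Log2 fold change of activated against quiescent cells for 8 AP-1 members and 6 gene lists in WT and KO, with filled points for called genes and open points for the rest. The AP-1 members and the other early genes lie almost wholly below 0, while the 5 protein turnover genes lie above 0 in both genotypes.

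Cxcr4 KO against WT in quiescent cells. AP-1 levels in freshly sorted cells were not shown to differ between the genotypes. None of the 9 tested members was called (0 of 9) or reached an unadjusted p below 0.05, and 0.0155% of all tested genes were called, which is 4 genes with Cxcr4 among them. DESeq2 on all 12 libraries also called 0 members. The log2 fold changes were -0.45 for Fos (SE 0.28), -0.40 for Fosb (SE 0.31), -0.39 for Jun (SE 0.24), -0.18 for Jdp2 (SE 0.21), -0.10 for Atf3 (SE 0.30), -0.08 for Junb (SE 0.24), 0.04 for Fosl2 (SE 0.24) and 0.11 for Fosl1 (SE 0.28). For 2 members, Fos and Fosb, every KO library lay below every WT library, as did 0.827% of all tested genes. The gap was narrow for Fos, with 3342 CPM as the lowest WT and 3332 CPM as the highest KO value. The direction for Fosl1 reversed without KO replicate 4 (-0.23) or WT replicate 1 (-0.03), and those of Fosl2 (-0.0053) and Junb (0.016) without KO replicate 4. None of the genes on the 6 pathway lists was called here (0 on each list).

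Cxcr4 KO against WT in activated cells. After culture the 8 members other than Batf3 all had lower means in KO, but none was called (0 of 9), beside 0.0504% of all tested genes, which is 13 genes. Of the 9 members, 4 had an unadjusted p below 0.05. Fos was at -1.58 (SE 0.43, adjusted p = 0.224 by edgeR), Atf3 at -1.56 (SE 0.45, adjusted p = 0.249 by edgeR), Fosb at -1.43 (SE 0.45, adjusted p = 0.327 by edgeR) and Fosl2 at -0.93 (SE 0.35, adjusted p = 0.451 by edgeR). Junb and Jun were both at -0.64 (SE 0.35 and 0.34), Jdp2 at -0.36 (SE 0.33) and Fosl1 at -0.28 (SE 0.41). The median of the 8 members was -0.79, beside 0.00 over all genes. For Fos and Fosb both KO libraries lay below both WT libraries, as did 9.5% of all tested genes. For Fosb the gap was narrow, from 39.85 CPM in WT replicate 2 to 39.81 CPM in KO replicate 1. On the 6 pathway lists 0 genes were called.

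These differences rested on 1 library. WT activated replicate 1 was at 78.4 CPM for Fos, 169 CPM for Fosb and 163 CPM for Atf3, and the other 3 activated libraries of both genotypes were at 13.9 to 23.6, 38.3 to 39.8 and 24.9 to 44.7 CPM. Without it, the differences were -0.54 for Fos (SE 0.46), -0.12 for Fosb (SE 0.44) and -0.28 for Atf3 (SE 0.40), and the median of the 8 members was -0.17. Without WT activated replicate 2 they were -2.25, -2.19 and -2.31, and 3 members were called. The calls also depended on the tool: DESeq2 on all 12 libraries called Fos (adjusted p = 0.0203) and Atf3 (adjusted p = 0.0371), and edgeR with no filter on low counts called Fos, Fosb and Atf3 (adjusted p = 0.0121, 0.0453 and 0.00491).

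WT activated replicate 1 was also high in other transcripts. It was the highest of the 4 activated libraries in 8 of the 9 counted AP-1 genes, in 15 of 19 other early and heat shock genes, in 9 of 12 feedback genes and in 13 of 18 counted AP-1 targets. On other lists it was highest in 8 of 16 zipper genes, 8 of 27 MAP kinase and SRF genes and 0 of 5 turnover genes. Among markers it was highest in 3 of 8 for satellite cells, 1 of 6 fibroadipogenic and 0 of 6 blood genes. The summed fibroadipogenic level was still highest in this library, at 730 CPM against 250 CPM in WT replicate 2 and 321 and 546 CPM in the KO libraries. The share of all genes in which this library was highest was not computed, so these counts cannot be called particular to the lists. Of the 4 activated libraries it also had the most counts (5427280) and the most genes with 10 counts or more (13411). Hspa1a was at 1481 CPM there and at 280, 96.1 and 181 CPM in the other activated libraries, Dusp1 at 380 CPM against 65.2, 67.0 and 114 CPM, Hbegf at 276 CPM against 39.8, 52.1 and 36.5 CPM, and Mmp3 at 25.3 CPM against 1.03 CPM or less. It was also highest in 5 of 6 endothelial markers, which summed to 647 CPM against 89.8 CPM in WT replicate 2 and 91.7 and 312 CPM in the KO libraries, in 4 of 5 smooth muscle and pericyte markers, and lowest in the summed fibre transcripts, at 6026 CPM. The part of these in the AP-1 values was not tested.

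**Figure D5:**
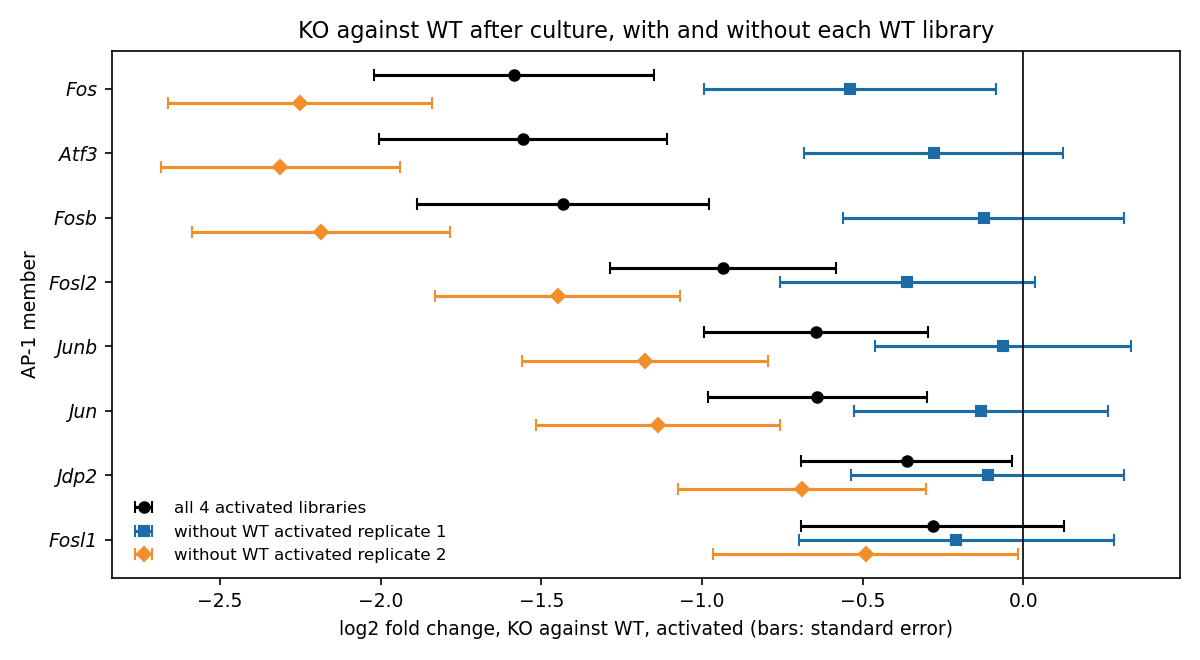
Log2 fold change of KO against WT activated cells for 8 AP-1 members, with standard errors, using all 4 activated libraries and leaving out each WT library in turn. Without WT activated replicate 1 the 8 values lie between -0.54 and -0.06, and without replicate 2 they lie between -2.31 and -0.49.

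The difference of the KO effect between the states was tested directly. Of 9 members 0 were called, as were 0 of all 25771 genes (0.0%), with 1699 genes and 3 members (Fos, Fosl2 and Atf3) at an unadjusted p below 0.05. DESeq2 called 47 genes and 0 members. The values were -1.45 for Atf3 (SE 0.54, adjusted p = 0.626 by edgeR), -1.14 for Fos (SE 0.51, adjusted p = 0.735 by edgeR), -1.03 for Fosb (SE 0.54, adjusted p = 0.791 by edgeR) and -0.98 for Fosl2 (SE 0.43, adjusted p = 0.721 by edgeR). Without WT activated replicate 1 those of Fosb, Jun, Junb and Jdp2 changed sign, that of Jdp2 also did so without KO activated replicate 1, and without WT activated replicate 2 Atf3 was called (-2.21, adjusted p = 0.024 by edgeR).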

How the data were processed

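RNA from sorted Pax7-ZsGreen+ cells was sequenced from 12 libraries in 4 groups. According to the methods and the submitters' processing notes, the authors trimmed reads with Trim Galore 0.6.0, mapped them to GRCm38.p6 with STAR 2.7.2a and counted reads on GENCODE genes with Rsubread. The deposited values were raw counts per gene and library, and FPKM as 1 value per group made by the authors. How reads shared by several genes or by overlapping genes were treated, and whether strand was used, is not given in the sources used here. Counts were fitted with edgeR 4.0.16 (R 4.3.3; quasi-likelihood F test, TMM factors, filterByExpr, all 12 libraries, 4 group means), with Benjamini-Hochberg adjustment over all 25771 genes. Levels are given as CPM with TMM factors applied; a prior count of 2 was added for log2 values. The fit was tested on simulated data. Exact permutation tests used scipy 1.17.1. Alternatives were DESeq2 1.42.0 size factors or fit, other filters, a robust fit, fits on the compared groups, a replicate block and leaving out each library. Named genes were the 10 members, Cxcr4, at most 3 highest and 3 lowest called genes per list, and the 3 nearest profiles of the members with the highest and lowest change in WT; Fosb was added to the latter, and the WT replicate 1 genes Hspa1a, Hbegf, Mmp3, Il6, Timp1 and Ccl2 and the markers Pax7, Ddx3y and Xist were named, after their values were seen. Gene lengths came from GENCODE M21. The members and lists were chosen with earlier results of these data known.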

Additional observations from a re-analysis of the deposited data

Results flagged for a closer look

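In 2 of 20 groups of 4 libraries examined, 1 library lay far from the rest by Dixon's criterion, which chance alone meets in about 1 group of 20. Atf3 was at 683 CPM in KO quiescent replicate 4 and at 864 to 884 CPM in the other KO quiescent libraries. The log2 ratio of Fosl1 to Fos was -3.57 in the same library and -5.12 to -4.89 in the other KO quiescent libraries. KO quiescent replicate 4 had the highest Fosl1 (198 CPM) and the lowest Fos (2359 CPM) of the 8 quiescent libraries. Among the WT quiescent libraries, replicate 4 likewise had the highest Fosl1 (162 CPM) and the lowest Fos (3342 CPM). The log2 ratio rose from replicate 1 to 4 in both genotypes, at -5.98, -5.52, -4.93 and -4.37 in WT, so this trait was not particular to KO replicate 4. No AP-1 gene met the criterion for a KO effect that differed between the states.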

How the results depend on the processing

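Apart from leaving out a library, 295 of 300 alternative values for the fold changes of 8 members and Cxcr4 (not tried for Cxcr4 in the difference between states) stayed on the same side of the threshold with the same direction, and 0 reversed. The 5 that changed were the KO against WT calls in activated cells that DESeq2 (Fos and Atf3) or no filter on low counts (Fos, Fosb and Atf3) added, so that 2 and 3 members were called lower there in place of 0. Members called lower numbered 7 to 8 in WT and 7 to 8 in KO (activated against quiescent) when a library was left out, 0 to 3 for KO against WT in activated cells and 0 to 1 for the difference between states.

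Genes called of all tested, KO against WT quiescent, numbered 47 with no filter in place of 4, and 3 to 7 without 1 library. In activated cells they numbered 8 with DESeq2 size factors, 332 with no filter, 2 with a mean count of at least 10, 20 with the robust fit, 150 with DESeq2 and 3 with the compared groups only, in place of 13, and 0 to 211 without 1 library. For the difference between states they numbered 170 with no filter, 8 with the robust fit, 47 with DESeq2 and 3 with the replicate block, in place of 0, and 0 to 82 without 1 library. Activated against quiescent, they numbered 4481 to 6501 in WT and 5020 to 7679 in KO without 1 library. The cause of these shifts was not tested.

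Values that reversed without 1 library ranged, for KO against WT quiescent, from -0.23 to 0.33 for Fosl1, -0.0053 to 0.12 for Fosl2 and -0.16 to 0.016 for Junb, and, for the difference between states, from -1.79 to 0.28 for Fosb, -0.75 to 0.26 for Jun, -1.09 to 0.023 for Junb and -0.61 to 0.088 for Jdp2. The log2 ratio of Fosl1 to Fos differed between states by 5.70 to 6.28 without 1 library.

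Over all genes, same-numbered WT and KO libraries deviated with correlations of 0.05, 0.12, -0.05 and 0.30 in quiescent and -0.02 in activated cells. Totals did run by number: WT quiescent replicates 1 to 4 held 17532019, 12775593, 23058947 and 22785815 counts. The KO ones held 17238391, 13075208, 22897189 and 23717013. Fosl1 was at 79.0, 85.4, 125 and 162 CPM in these WT and 80.4, 99.5, 110 and 198 CPM in these KO libraries. The labels do not say whether same-numbered libraries were handled together. With the replicate block 7 members were called lower in WT and 8 in KO, and no member changed its call. Where a library left out leaves 1 in its group, that library is assumed to vary like the other groups. Activated libraries held fewer counts, and at 0 to 2 counts each a change of Batf3 could not be measured closely.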
